A study of Mus musculus with 98 samples.

Results

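Hdc, the gene of histidine decarboxylase, and 9 genes that mark basophils, mast cells or eosinophils (Mcpt8, Cpa3, Ms4a2, Fcer1a, Ccr3, Epx, Prg2, Il5ra and Siglecf) were followed across all 98 arrays. The members were all probe sets that the platform's gene table maps to these 10 symbols, which gave 10 of 12393 named genes and 11 of 22626 probe sets: 2 for Hdc and 1 for each other gene. RNA came from white blood cells (64 arrays) and spleen (34 arrays) of mice in 3 models, namely burn, trauma-hemorrhage and infusion of LPS (bacterial lipopolysaccharide). Titles mark each array with A or E and with c or x, called its letter and its code here. In blood the labels describe letter E as the injury or infusion and letter A as the sham procedure, whereas all spleen arrays carry E. The burn spleen labels name spleen leukocytes, and those of the other spleen sets name the spleen. They leave the codes unexplained, so x and c were compared as coded, and they give no strain, age, time or animal for any group. For letter A, burn blood held 5 arrays of c and 4 of x, LPS blood 6 and 5, and trauma-hemorrhage blood 5 of either. For letter E, the blood sets held 6 of c with 5 of x (burn), 6 with 5 (LPS) and 6 with 6 (trauma-hemorrhage). Burn spleen had 5 of c against 6 of x, LPS spleen 6 against 6 and trauma-hemorrhage spleen 6 against 5. Whether arrays of the same group are from different animals is not stated, and the p-values therefore cover the spread among arrays, possibly technical.

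Histidine decarboxylase makes histamine from the amino acid histidine in a single step. Mast cells and basophils store histamine in granules and release it when IgE bound to the receptor encoded by Fcer1a and Ms4a2 is crosslinked. Eosinophils are a separate granulocyte lineage that depends on the interleukin-5 receptor and carries the eotaxin receptor encoded by Ccr3. In mice, Hdc is also transcribed in immature and activated myeloid cells, including neutrophils. The question was whether Hdc moved with the other genes of these granulocytes when x and c were compared within 1 model and 1 tissue, which makes 6 array sets.

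Hdc is annotated on chromosome 2 (chr2:126593659-126624025, GRCm38.p6) and was measured by probe sets 1454713_s_at and 1451796_s_at. The first, which had the higher mean, stands for Hdc below and the other is called its second probe set. The ending s marks a probe set that matches more than one transcript. RefSeq promoters (GRCm38.p6, from 250 bases before to 50 bases after an annotated start) were found for 9 of the 10 genes. Hdc moved apart from all 9 other genes in the results below. As examples, the promoters of Hdc and of a pair of basophil and mast cell genes are shown. All are on the minus strand, written 5' to 3', at chr2:126618629-126618928 for Hdc, chr3:20242132-20242431 for Cpa3 and chr19:11623670-11623969 for Ms4a2. Capitals mark GATAA on either strand, a core that GATA factors bind.
Hdc: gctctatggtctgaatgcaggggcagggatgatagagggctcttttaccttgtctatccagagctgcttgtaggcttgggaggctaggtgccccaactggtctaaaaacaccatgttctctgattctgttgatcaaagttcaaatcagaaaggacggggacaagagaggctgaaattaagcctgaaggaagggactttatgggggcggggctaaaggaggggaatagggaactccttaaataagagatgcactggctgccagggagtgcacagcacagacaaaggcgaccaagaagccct
Cpa3: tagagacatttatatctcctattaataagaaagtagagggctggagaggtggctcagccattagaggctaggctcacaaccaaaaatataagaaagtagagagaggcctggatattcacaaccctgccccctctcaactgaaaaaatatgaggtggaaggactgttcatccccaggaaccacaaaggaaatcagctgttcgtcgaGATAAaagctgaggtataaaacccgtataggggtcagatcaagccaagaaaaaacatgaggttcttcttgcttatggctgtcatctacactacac
Ms4a2: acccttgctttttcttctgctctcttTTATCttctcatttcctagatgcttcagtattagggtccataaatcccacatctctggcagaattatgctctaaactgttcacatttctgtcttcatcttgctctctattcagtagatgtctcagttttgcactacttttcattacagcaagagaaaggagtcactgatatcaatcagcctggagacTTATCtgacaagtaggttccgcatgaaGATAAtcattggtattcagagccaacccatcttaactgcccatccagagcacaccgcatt
The letters searched on both strands were GATAA, TTNNGNAA (a C/EBP-like site), TATAAA and CACGTG (an E-box), and overlapping matches were kept. GATAA was found 3 times in the Ms4a2 window, 1 time each in those of Cpa3, Fcer1a, Ccr3, Il5ra and Siglecf, and not in those of Hdc, Mcpt8 and Epx. The pair shown beside Hdc thus hold GATAA, while the window of Mcpt8, also a basophil gene, does not. The Hdc window, which lies inside the annotated span of the gene, also held none of the other motifs. No other start of Hdc was searched. Of 32544 distinct promoter windows, with those of 1 chromosome left out, 25.3% held GATAA, 40.7% TTNNGNAA, 13.6% TATAAA and 7.17% CACGTG.

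The deposited values were linear intensities. Each array set had 1 lowest value, or floor, at which dim probe sets were held. It was lowest in burn spleen (9.68) and highest in LPS blood (32.5), and no level was compared across sets. Differences were tested with limma on log2(intensity + 16) after quantile normalization within a tissue. They are given in log2 units ± SE, with Benjamini-Hochberg adjustment over all 22626 probe sets, and called at an adjusted p of 0.05. A fold is on the same scale and understates the change of a dim gene. Markers of the labelled tissues were present: the neutrophil gene S100a8 had a median intensity of 9119 in blood and 4409 in spleen, and the B cell gene Cd79a 669 and 2213. Burn blood held a pair of c arrays of letter E, replicates 4 and 5, that stood apart from the other 4 of their group. Their mean log2 values over 14 neutrophil genes were 11.83 and 11.50, against 8.54 to 9.32 in the others. RNA integrity was followed by beta-actin, as the log2 of the 3' over the 5' control signal. This ratio was 1.49 to 1.65 in c and 0.94 to 1.27 in x arrays of LPS blood, and 1.79 to 2.28 in c and 0.97 to 1.65 in x arrays of trauma-hemorrhage blood. In these 2 sets the ratio and the code cannot be told apart. In the other 4 sets the ranges of the codes overlapped.

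Hdc was higher in x than in c in all 6 array sets. In burn spleen the c arrays had Hdc intensities of 12.4, 9.68, 17.9, 21.1 and 66.0, the second of them at the floor. The 6 x arrays ranged from 226 to 423 with a median of 329. Every x array was above every c array, and the difference was 3.12 ± 0.27 (8.70-fold, adjusted p = 5.92e-05, limma). Trauma-hemorrhage spleen had 12.5 to 105 (median 28.4) in 6 c arrays and 890, 708, 518, 752 and 888 in the 5 x arrays. The codes did not overlap there either, and Hdc rose by 3.69 ± 0.33 (12.9-fold, adjusted p = 2.91e-05, limma). In LPS spleen the c arrays gave 188 to 629 (median 304) and the x arrays 876 to 1269 (median 1018). This difference of 1.67 ± 0.29 (3.17-fold, adjusted p = 0.0108, limma) again left no overlap between the codes. In bulk RNA, more cells that carry a transcript and more transcript per cell cannot be told apart.

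**Figure D1:**
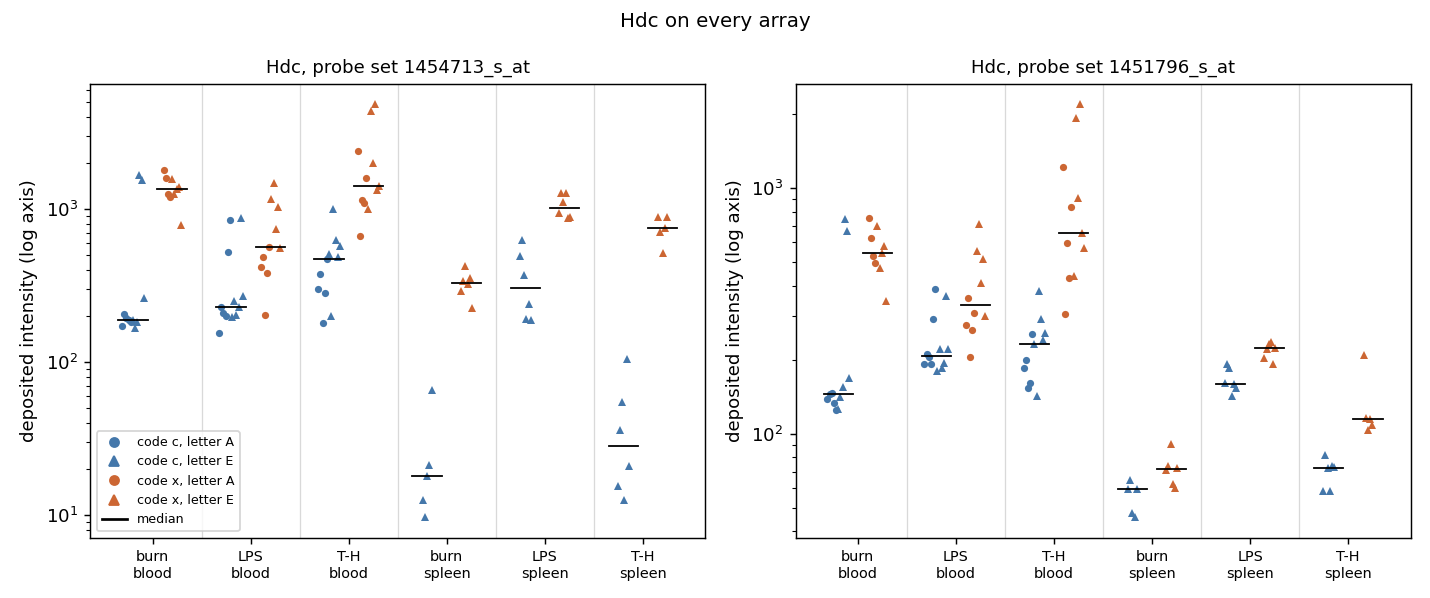
Deposited intensity of Hdc (vertical log axis) on each array of the 6 array sets, at left for probe set 1454713_s_at and at right for 1451796_s_at. Blue points are c and orange points x arrays, circles letter A and triangles letter E, and bars are medians; in the left panel the codes do not overlap in the 3 spleen sets, and 2 c arrays of burn blood lie among the x arrays.

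Blood showed the same direction with more overlap. In burn blood Hdc ran from 167 to 1656 (median 189) in 11 c arrays and from 790 to 1785 (median 1358) in 9 x arrays. The c arrays that reached the x range were the pair that stood apart, at 1656 and 1539, while the next c array was at 261. Hdc rose by 2.19 ± 0.35 (4.56-fold, adjusted p = 0.000409, limma) with this pair and by 2.64 (adjusted p = 4.06e-10) without it. In LPS blood the c arrays ran from 155 to 877 (median 229) and the x arrays from 203 to 1465 (median 560). After normalization, on the log2 scale, 4 of 10 x arrays exceeded the highest c array. The difference was 1.03 ± 0.29 (2.04-fold, adjusted p = 0.0163, limma). In 3 of its c arrays (letter A replicates 5 and 6 and letter E replicate 5) the neutrophil means were 10.15, 10.81 and 10.10, against 8.72 to 9.42 in the other 9, and Hdc was 521, 849 and 877, against 155 to 271. Without these 3 arrays, left out after their values were seen, the difference was 1.44 (adjusted p = 6.27e-05, limma). Trauma-hemorrhage blood had 181 to 995 (median 469.5) in c and 669 to 4825 (median 1410) in x arrays. On the normalized log2 scale, 8 of 11 x arrays exceeded the highest c array. Here Hdc rose by 1.73 ± 0.29 (3.32-fold, adjusted p = 0.000117, limma). With the beta-actin ratio as a covariate the Hdc difference was -0.47 in LPS blood (adjusted p = 0.808, limma). In trauma-hemorrhage blood it was 0.73 (adjusted p = 0.763, limma), so neither call was left. Of all 22626 probe sets, that covariate left 1775 called in LPS blood, against 4739 without it. In trauma-hemorrhage blood 8 were called, against 10090.

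By group, Hdc in burn blood had a normalized log2 intensity of 7.70 ± 0.08 (SD, n = 5) in c arrays of letter A, 8.70 ± 1.40 (SD, n = 6) in c of letter E, 10.30 ± 0.37 (SD, n = 5) in x of letter E and 10.48 ± 0.23 (SD, n = 4) in x of letter A. Neither the c groups nor the x groups differed from each other by more than their larger SD, while the step from c to x of letter E did. In LPS blood the order was c of letter E at 8.12 ± 0.74 (SD, n = 6), c of letter A at 8.13 ± 0.87 (SD, n = 6), x of letter A at 8.58 ± 0.56 (SD, n = 5) and x of letter E at 9.73 ± 0.56 (SD, n = 5). Only the step to the last group exceeded the SDs. In trauma-hemorrhage blood the order was c of letter A at 8.49 ± 0.52 (SD, n = 5), c of letter E at 9.19 ± 0.75 (SD, n = 6), x of letter A at 10.24 ± 0.62 (SD, n = 5) and x of letter E at 10.90 ± 0.79 (SD, n = 6). The step from c of letter E to x of letter A was larger than both SDs, and the other steps were not. Within single letters the difference between codes was 2.78 (A) and 1.60 (E, adjusted p = 0.274, limma) in burn blood and 0.44 (A, adjusted p = 0.616) and 1.61 (E) in LPS blood. It was 1.75 (A) and 1.71 (E) in trauma-hemorrhage blood. The arrays of a set come from runs of consecutive title numbers. Within the first and the second run the Hdc difference was 1.76 and 0.28 (adjusted p = 0.812) in LPS blood, where the 3 c arrays of high neutrophil mean are all in the second run, 1.77 (adjusted p = 0.103) and 1.68 in trauma-hemorrhage blood, and 1.08 (adjusted p = 0.116, limma) and 2.25 in LPS spleen. In burn blood the first run alone gave 2.32, and the other run did not hold enough arrays of each group for a value.

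The second Hdc probe set was also called higher in all 6 sets, by less. Its differences were 1.48 ± 0.27 in burn blood, 0.66 ± 0.16 in LPS blood, 1.55 ± 0.24 in trauma-hemorrhage blood, 0.31 ± 0.09 in burn spleen, 0.42 ± 0.09 in LPS spleen and 0.69 ± 0.16 in trauma-hemorrhage spleen. The calls in burn spleen (adjusted p = 0.0463) and LPS spleen (adjusted p = 0.0352, limma) were lost when single arrays were left out, in 8 of 11 and in 9 of 12 such fits. In the spleen sets the first probe set rose by 2.81, 1.25 and 2.99 log2 more than the second for burn, LPS and trauma-hemorrhage (exact permutation test, two-sided, adjusted p = 0.00325 in each). In blood the gap was 0.71 for burn (exact permutation test, adjusted p = 0.000103), 0.37 for LPS (adjusted p = 0.0433) and 0.18 for trauma-hemorrhage (adjusted p = 0.0932).

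The basophil and mast cell genes differed little between codes, with 1 call among the 4 genes. That call was lower in trauma-hemorrhage blood, where 27.1% of all probe sets were lower. Mcpt8, a mouse basophil protease, lay between 28.2 and 120.1 on all 98 arrays and passed in no set, with differences from -0.11 to 0.14. In LPS blood (0.11 ± 0.04, adjusted p = 0.0537, limma) it was called in 6 of 22 fits that left out 1 array. Cpa3, the carboxypeptidase of mast cell and basophil granules, ran from 113 to 266 in blood and differed by -0.19 to 0.19 without a call. Fcer1a, the chain that binds IgE, ran from 32.2 to 123 in blood and from 32.9 to 69.9 in spleen and was not called in any set. Ms4a2, the beta chain of the same receptor, was lower in x in trauma-hemorrhage blood, with 84.9 to 121 (median 95.01) in c and 68.7 to 95.04 (median 88.5) in x arrays. That difference of -0.13 ± 0.05 (adjusted p = 0.0322, limma) lost its call in 4 of 22 fits that left out 1 array and within either letter alone. It was also not called with the beta-actin ratio as a covariate (adjusted p = 0.931, limma), a fit that called 8 of all 22626 probe sets, against 10090 without it.

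Among the eosinophil genes, 4 calls were lower and 1 higher in x over the 6 sets. Of all probe sets, 0.605% (LPS spleen) to 27.1% (trauma-hemorrhage blood) were lower and 1.62% to 17.5% higher in the same sets. In trauma-hemorrhage blood Prg2, which encodes major basic protein, had 78.9 to 113 (median 89.4) in c and 51.9 to 83.5 (median 74.6) in x arrays, a difference of -0.29 ± 0.06 (adjusted p = 0.000526, limma). Siglecf, a sialic acid-binding lectin of mouse eosinophils, had 55.2 to 109 (median 72.1) in c and 42.0 to 64.1 (median 55.2) in x arrays there, a difference of -0.36 ± 0.09 (adjusted p = 0.00346, limma). Both calls were absent with the beta-actin ratio as a covariate (adjusted p = 0.666 and 0.604, limma). That fit called 8 of all 22626 probe sets, against 10090 without the covariate, so the loss is not particular to these genes. In burn blood Siglecf was instead higher in x, with 48.1 to 72.0 (median 56.9) in c and 59.0 to 81.3 (median 70.8) in x arrays. The difference of 0.20 ± 0.05 (adjusted p = 0.00857, limma) was not called in letter E alone (0.03, adjusted p = 0.924), with all blood groups in 1 fit (0.20, adjusted p = 0.0789) or in the first run of title numbers alone (0.23, adjusted p = 0.0619).

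Ccr3 and Il5ra, receptors of eosinophils, were lower in burn spleen. Ccr3 had 24.9, 9.96, 23.3, 19.6 and 24.0 in c arrays, and 5 of the 6 x arrays were at the floor. Its difference was -0.47 ± 0.10 (adjusted p = 0.0141, limma), with values at the floor taken as they stand. Il5ra, the alpha chain of the interleukin-5 receptor, which mouse B-1 cells also carry, had 94.3, 80.3, 78.2, 87.8 and 92.8 in c arrays and 43.1 to 70.7 (median 61.6) in x arrays. The codes did not overlap, and the difference was -0.38 ± 0.09 (adjusted p = 0.0167, limma). Genes of the B cell list were lower in the same set, 5 of 6 called (5.18% of all probe sets were lower), and the part of B cells in the Il5ra result was not tested. In LPS spleen Epx, the eosinophil peroxidase, had 62.8 to 142 (median 80.6) in c and 40.1 to 49.9 (median 46.2) in x arrays with no overlap. This difference of -0.75 ± 0.18 had an adjusted p of 0.0600 (limma) and was called under 9 other settings, such as intensities as deposited (-0.72, adjusted p = 0.0351) and all spleen groups in 1 fit (-0.75, adjusted p = 0.000268). In trauma-hemorrhage spleen no gene but Hdc was called. Ccr3 came closest there, at -0.31 ± 0.10 (adjusted p = 0.0530, limma), and was called under 3 other settings (adjusted p = 0.0174 to 0.0423, limma) and in 2 of 11 fits that left out 1 array.

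**Figure D2:**
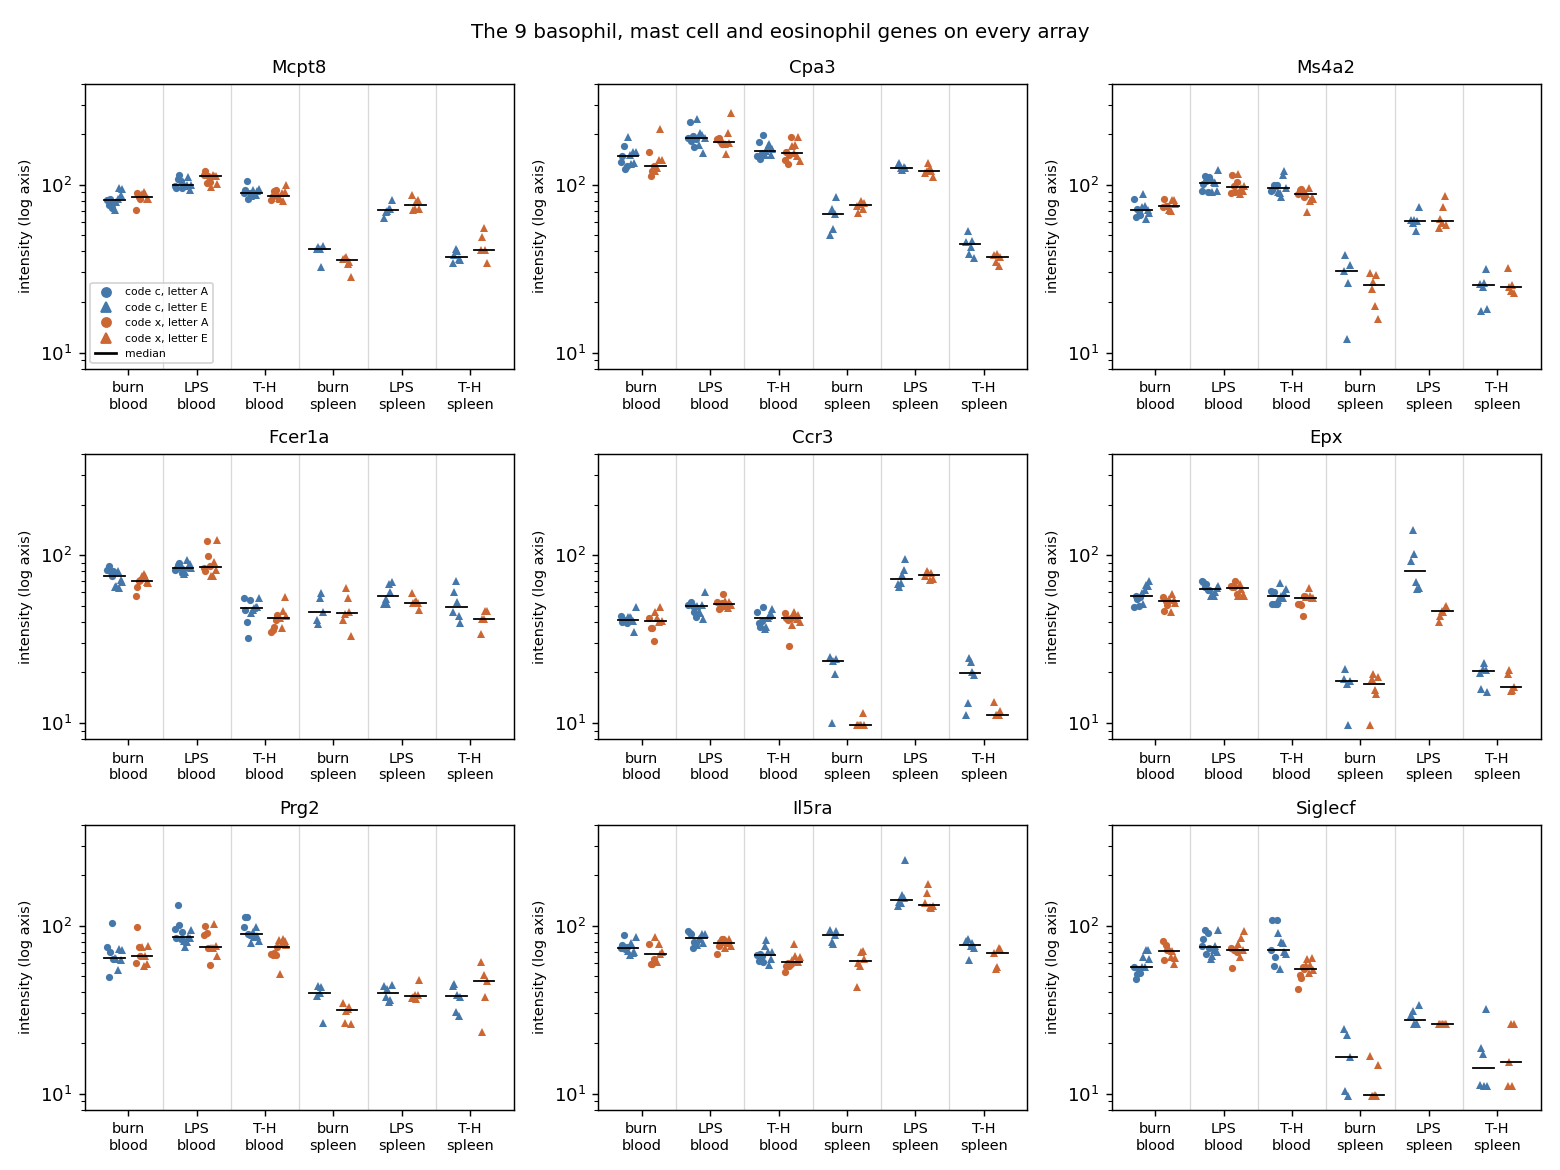
Deposited intensity (vertical log axis, the same range in each panel) of the 9 basophil, mast cell and eosinophil genes on each array, by array set; blue points are c and orange points x arrays, circles letter A and triangles letter E, and bars are medians. The codes overlap in most panels, apart from Il5ra in burn spleen and Epx in LPS spleen, Ccr3 and Siglecf reach the floor in burn and trauma-hemorrhage spleen, and all 6 x arrays of LPS spleen are at the floor for Siglecf.

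Counted over all members, 3 of 11 probe sets were higher and 0 lower in burn blood, where 5.51% of all 22626 probe sets were called higher and 8.21% lower. The counts were 2 and 0 in LPS blood (10.9% and 10% of all), 2 and 3 in trauma-hemorrhage blood (17.5% and 27.1%), 2 and 2 in burn spleen (6.58% and 5.18%), 2 and 0 in LPS spleen (1.62% and 0.605%) and 2 and 0 in trauma-hemorrhage spleen (7.99% and 11.8%). Without Hdc, the 9 genes had 1 higher and 0 lower, 0 and 0, 0 and 3, 0 and 2, 0 and 0, and 0 and 0 called in the same order. At an unadjusted p under 0.05, 4, 1 and 3 of 9 passed in burn, LPS and trauma-hemorrhage blood, and 2, 3 and 2 in the spleen sets. Of all 22626 probe sets, 5688, 7293 and 11654 passed at that p in blood and 5943, 2193 and 7060 in spleen. Over the 9 genes the median difference was -0.05, -0.02, -0.07, -0.11, -0.06 and -0.07, against -0.0021, 0, -0.03, -0.0048, -0.0091 and 0 over all probe sets. With a filter at the 30th percentile of mean intensity, 5 of the 11 probe sets passed in blood (both of Hdc, Mcpt8, Cpa3 and Ms4a2) and 4 in spleen (both of Hdc, Cpa3 and Il5ra); the others were dimmer than that.

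**Figure D3:**
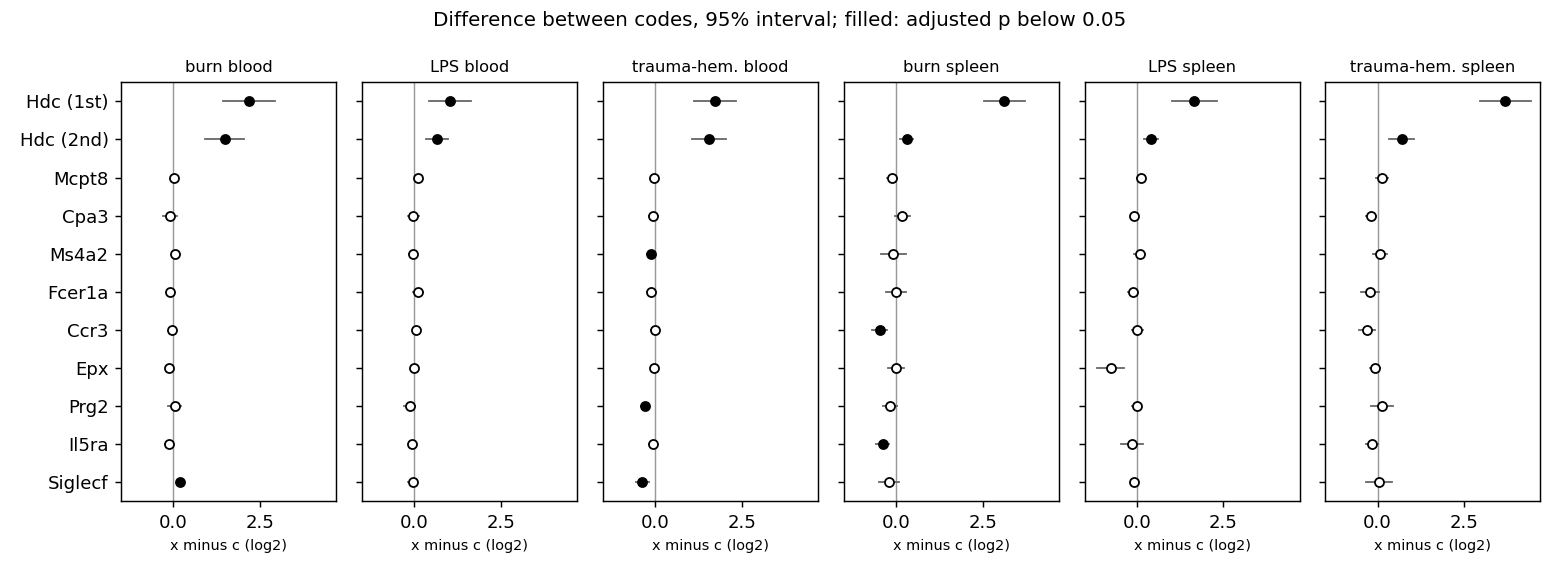
Difference between x and c (horizontal axis, log2) for the 11 probe sets in each array set, with 95% intervals; filled circles passed at an adjusted p of 0.05 and open circles did not. Hdc (1st) is probe set 1454713_s_at and lies at 1.03 to 3.69, while the 9 other genes lie between -0.75 and 0.20.

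Whether Hdc differed more between codes than the other genes did was tested on Hdc minus each gene per array. In all 54 comparisons (9 genes in 6 sets) Hdc rose more than the gene, by 0.92 to 3.99 log2. Each passed at an adjusted p of 0.0001 to 0.0217 (exact permutation test, two-sided, codes reassigned within letters, adjusted over the 54). The range was 1.99 to 2.31 in burn blood, 0.92 to 1.16 in LPS blood, 1.74 to 2.10 in trauma-hemorrhage blood, 2.93 to 3.59 in burn spleen, 1.55 to 2.42 in LPS spleen and 3.55 to 3.99 in trauma-hemorrhage spleen. All 54 share the Hdc values and the arrays, so they are not independent. The 9 genes differed by -0.75 to 0.20 between codes, so these values largely repeat the Hdc rise. A rise of a gene near the background could be missed here. In each spleen comparison the unadjusted p of 0.00216 was the smallest that this permutation test can give.

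From array to array within groups, no correlation of Hdc with these genes passed the threshold. Of 54 correlations of its within-group deviations with theirs (11 to 22 arrays each), 0 passed after adjustment over 60 relations (permutation tests, lowest adjusted p = 0.108). Pearson's r ran from -0.83 to 0.85 with a median of 0.003, and 27 of the 54 were negative. The highest was Epx in LPS spleen, with r of 0.85 and rho of 0.81 (12 arrays, permutation tests, adjusted p = 0.116 and 0.279) and r of 0.65 without the 2 arrays farthest from the median. Its c arrays of the first run of title numbers had Epx at 92.0 to 142 and Hdc at 370 to 629. Those of the second run had 62.8 to 69.2 and 188 to 237. In x arrays the runs overlapped for both genes. The permutations did not hold the run fixed. The other 6 relations were with the mean of 14 neutrophil genes, and the 3 in blood passed. In burn blood r was 0.98 and Spearman's rho 0.88 (20 arrays, permutation tests, adjusted p = 0.0006 and 0.0064), and r was 0.75 without the 2 arrays farthest from the median. In LPS blood r was 0.92 and rho 0.93 (22 arrays, adjusted p = 0.0006 for both), with r of 0.89 without the 2 farthest. Trauma-hemorrhage blood gave 0.87 and 0.84 (22 arrays, adjusted p = 0.0006 and 0.0015), with r of 0.88 without them. In spleen r was 0.66 for burn, 0.79 for LPS and 0.61 for trauma-hemorrhage, with adjusted p of 0.239, 0.116 and 0.256 (11 to 12 arrays, permutation tests). Without the 2 farthest arrays r was -0.17, 0.55 and -0.09, so the burn and trauma-hemorrhage spleen values rested on those arrays.

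**Figure D4:**
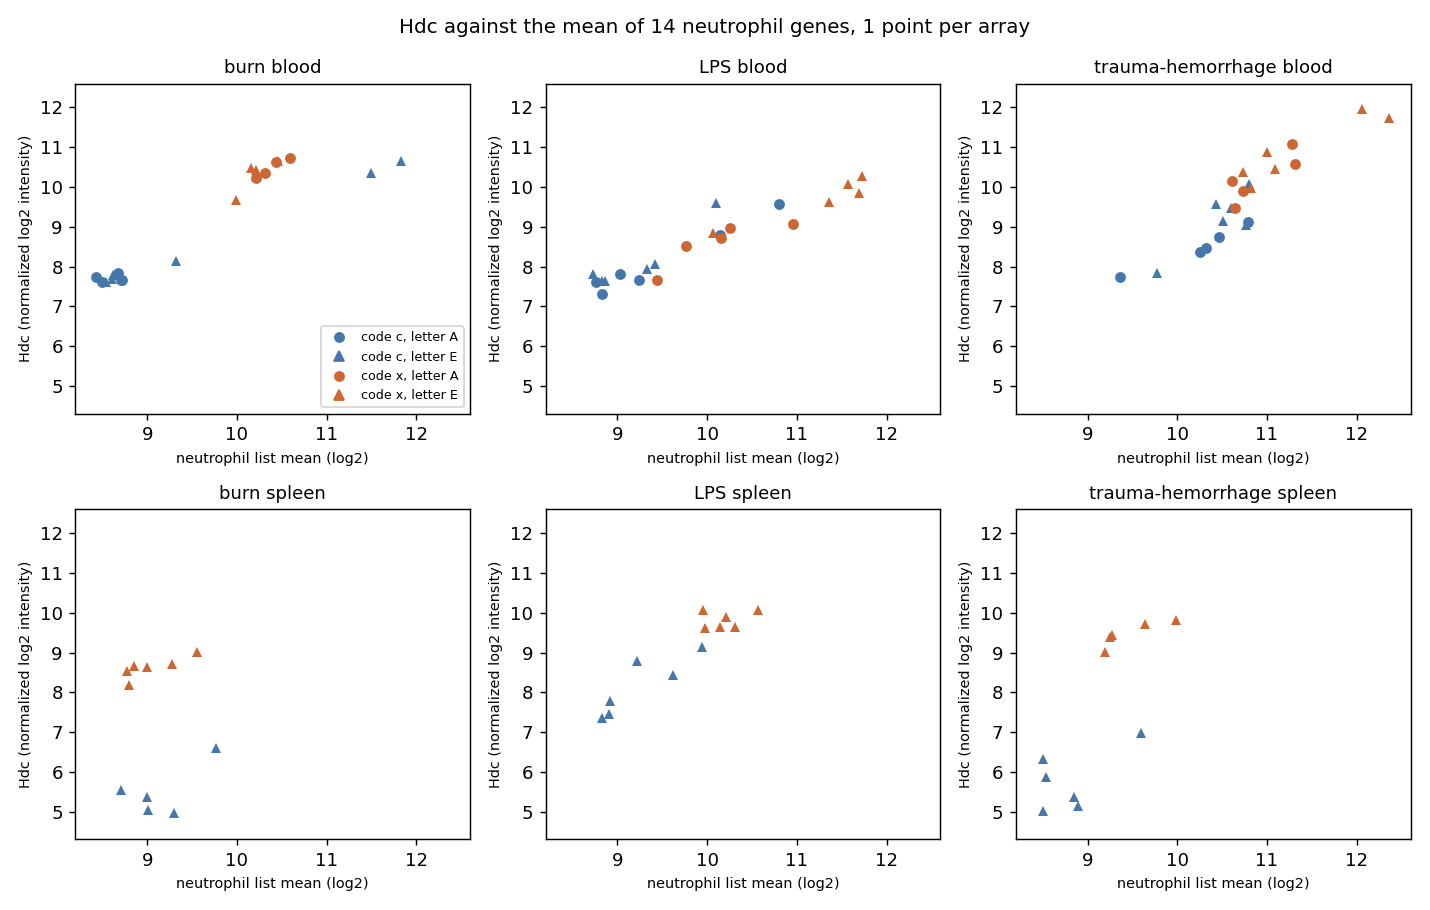
Hdc (vertical axis, normalized log2 intensity) against the mean of 14 neutrophil genes (horizontal axis, log2), 1 point per array in each array set, with blue for c, orange for x, circles for letter A and triangles for letter E. In blood the points rise together; in burn spleen c and x arrays share a neutrophil range (8.71 to 9.77 and 8.78 to 9.56) while Hdc separates them.

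The neutrophil genes differed between codes as well, and not in every set where Hdc did. In burn blood 7 of 14 were higher and 0 lower (5.51% and 8.21% of all probe sets), with Csf3r, the receptor of the granulocyte growth factor, at 1.25 and the alarmins S100a9 and S100a8 at 1.55 and 1.43. LPS blood had 12 higher and 0 lower (10.9% and 10% of all), led by Pglyrp1 (2.05), Cd177 (2.07) and Csf3r (0.75). In trauma-hemorrhage blood 9 were higher and 2 lower (17.5% and 27.1% of all), with the granule gene Ngp at 2.71, Fpr2 at 1.20 and Cd177 at 1.60. LPS spleen and trauma-hemorrhage spleen each had 6 higher and 0 lower (1.62% and 0.605% of all in the former, 7.99% and 11.8% in the latter), and Fpr2, a formyl peptide receptor, had the smallest p in both (2.07 and 2.38). In burn spleen 0 of 14 were higher at the threshold (0 also at an unadjusted p under 0.05) and 1, Camp, was lower (-1.16), where 6.58% of all were higher and 5.18% lower. The median difference of the 14 was 1.25, 1.49 and 0.67 in burn, LPS and trauma-hemorrhage blood and -0.07, 0.83 and 0.70 in the spleen sets. The neutrophil means there ran from 8.71 to 9.77 in c and from 8.78 to 9.56 in x arrays, while Hdc differed 8.70-fold. The part of neutrophils in the Hdc differences was not tested.

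The genes most like Hdc over all 98 arrays were taken by Pearson's r among 12392 genes, as a description. With each array set centred these were Cd14 (0.93), Clec4e (0.92), Il1r2 (0.92), Clec4d (0.90), Slc15a3 (0.90), Dgat1 (0.89), Acod1 (0.89) and Slfn4 (0.89). With each of the 18 groups centred, which takes out the difference between codes, they were Arg2 (0.93), Clec4d (0.91), Slc15a3 (0.91), Il1r2 (0.89), Cxcr2 (0.88), Mmp8 (0.88), Clec4e (0.88) and Hp (0.88). Cd14 is a co-receptor for LPS, Clec4e and Clec4d are C-type lectin receptors of myeloid cells, and Il1r2 is a decoy receptor for interleukin-1. Cxcr2 is a chemokine receptor and Mmp8 a collagenase of neutrophils, and both belong to the neutrophil list. The second Hdc probe set reached 0.82 and 0.86 by these measures. The 9 other members ran from -0.44 (Il5ra) to 0.14 (Mcpt8, with 2545 of the 12392 genes more like Hdc) with sets centred. With groups centred they ran from -0.15 (Il5ra) to 0.25 (Epx) and 0.26 (Siglecf), with 1217 and 1195 genes more like Hdc than the last pair. Points of 1 set share processing and tissue, so these r are not independent of array quality.

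The size of the Hdc difference varied between the spleen sets. Burn spleen is labelled as leukocytes, and LPS spleen carries v2 in its titles and a separate range of title numbers, so model, material and array series cannot be told apart here. It was 1.46 ± 0.43 larger in burn than in LPS spleen (adjusted p = 0.0369, limma) and 2.02 ± 0.43 larger in trauma-hemorrhage than in LPS spleen (adjusted p = 0.00195). Burn and trauma-hemorrhage spleen differed by 0.57 ± 0.44 (adjusted p = 0.435). With letter E alone, trauma-hemorrhage blood minus spleen was -1.98 ± 0.55 (adjusted p = 0.0161). None of the blood sets differed in the first Hdc probe set at the threshold, the largest being 1.16 ± 0.45 for burn minus LPS (adjusted p = 0.0693, limma). The second probe set was called in trauma-hemorrhage minus LPS blood (0.90). With a pseudocount of 64, burn minus LPS in spleen (0.71, adjusted p = 0.191) and trauma-hemorrhage blood minus spleen (-1.21, adjusted p = 0.0681, limma) were not called for the first probe set. Contrasts that share a set are not independent. Among all 11 probe sets, differences between blood sets were called for 0 in burn minus LPS (16.8% of all probe sets; 5 of 11 at an unadjusted p under 0.05), 3 in trauma-hemorrhage minus LPS (41.3%) and 3 in trauma-hemorrhage minus burn (36.9%). In spleen the counts were 3 (6.36%), 2 (8.87%) and 1 (18%) in the same order. For blood minus spleen they were 1 in burn (2.73%), 1 in LPS (4.54%) and 2 in trauma-hemorrhage (19.1%).

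Letter E against A, the injury or infusion against sham, called none of the members. The counts were 0 of 11 in burn blood (0% of all probe sets), LPS blood (0.00442%) and trauma-hemorrhage blood (0.0221%) by limma. At an unadjusted p under 0.05, 2, 1 and 3 of 11 passed, and 1406, 1158 and 2196 of all 22626 probe sets. Hdc was 0.41 ± 0.35, 0.57 ± 0.29 and 0.68 ± 0.29 higher in E in these sets (adjusted p = 0.881, 0.968 and 0.442, limma). Its 95% intervals reached from -0.34 to 1.16, from -0.04 to 1.18 and from 0.08 to 1.28. The test of whether the difference between codes depended on the letter also called no member, with 0 of 11 in each set (0% of all in each, by limma). At an unadjusted p under 0.05, 2, 1 and 1 of 11 passed, and 2457, 1560 and 1660 of all 22626 probe sets.

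Other genes of histamine and of these cells were called most often in trauma-hemorrhage blood, where 17.5% of all probe sets were higher and 27.1% lower. Of 8 measured genes that break down, transport or sense histamine, 3 were lower in that set. These were Hnmt, the methyltransferase that inactivates histamine (-0.92 ± 0.17, adjusted p = 0.000317), the receptor Hrh1 (-0.13) and the transporter Slc29a4 (-0.14). None was called in the other sets, where 0 to 3 of 8 passed an unadjusted p under 0.05. At that p, 2193 to 7293 of all 22626 probe sets passed in these other sets. Of 20 further basophil and mast cell genes, 3 were higher and 7 lower in trauma-hemorrhage blood, and Cma1, a mast cell chymase, fell by 0.72 there. Those higher were Csf2rb (0.99), Csf2rb2 (1.22) and Fcer1g (0.32), receptor chains that other myeloid cells also use. LPS blood had 5 higher and 1 lower (10.9% and 10% of all). Kit, the stem cell factor receptor, was lower (-0.25). Fcer1g (0.39), Csf2rb (0.48), the mast cell tryptase gene Tpsab1 (0.20), Il13 (0.08) and Cma1 were higher, the last by 0.23 (adjusted p = 0.0332, limma), against its lower level in x in trauma-hemorrhage blood. Burn blood had 0 called (5 of 20 at an unadjusted p under 0.05). Burn spleen had 1 lower (Gata2, a transcription factor of basophils and mast cells, -0.44) and LPS spleen 1 higher (Csf2rb2, 0.74). Trauma-hemorrhage spleen had 3 higher and 1 lower, with Csf2rb2 at 1.18, Fcer1g at 0.54, Gata1 at 0.26 and Cma1 at -0.44. Of all probe sets, 5.51% were higher and 8.21% lower in burn blood, and 6.58% and 5.18% in burn spleen. The shares were 1.62% and 0.605% in LPS spleen and 7.99% and 11.8% in trauma-hemorrhage spleen. The median difference of the 20 was 0.05, 0.05 and -0.07 in burn, LPS and trauma-hemorrhage blood and -0.15, 0.04 and 0.07 in the spleen sets. Of 5 further eosinophil genes, Il5 (-0.15) and Ccl24 (-0.20) were lower in trauma-hemorrhage blood and none was called elsewhere (0 to 1 at an unadjusted p under 0.05).

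Lists of other cells moved in several of these sets, and their part in the Hdc result was not tested. Of all probe sets, 5.51%, 10.9% and 17.5% were higher and 8.21%, 10% and 27.1% lower in burn, LPS and trauma-hemorrhage blood, and 6.58%, 1.62% and 7.99% higher and 5.18%, 0.605% and 11.8% lower in the spleen sets in the same order. B cell genes (6 measured) were lower in 6, 1, 2, 5, 0 and 5 cases in burn, LPS and trauma-hemorrhage blood and then burn, LPS and trauma-hemorrhage spleen, and 1 was higher in LPS blood. In that order, T cell genes (7) were higher in 0, 0, 3, 3, 0 and 0 and lower in 0, 1, 1, 0, 1 and 4. Natural killer cell genes (5) were higher in 0, 1, 2, 0, 0 and 1 and lower in 5, 1, 0, 2, 1 and 2. Monocyte and macrophage genes (6) were higher in 1, 1, 3, 1, 1 and 1 and lower in 1, 1, 0, 3, 0 and 4. Platelet genes (7) were higher in 5 in LPS blood and lower in 1 in burn and 2 in trauma-hemorrhage blood, and were not called in spleen. Erythroid genes (4) were higher in 1 in burn and 2 in LPS blood and lower in 1 in trauma-hemorrhage blood and 3 in burn spleen. Of 4 granule genes of neutrophil precursors, 2 were lower in trauma-hemorrhage blood and none was called elsewhere.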

How the data were processed

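RNA of mouse white blood cells and spleen was measured on 98 Affymetrix arrays of 22690 probe sets. The deposited values are linear intensities, 1 per probe set and array, and the authors' steps before deposit are not given in the sources used here. The 64 control probe sets were left out. Probe sets were named through the platform's gene table (1 symbol for 20380 probe sets, several for 691, none for 1555), coordinates and promoters from RefSeq (GRCm38.p6).

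Intensities were taken as log2(value + 16) and quantile normalized within each tissue. No filter on dim probe sets was used, so that every member was tested. Each array set had a limma fit of its own (version 3.58.1, R 4.3.3; eBayes used a mean-variance trend), in which every group was a term and x minus c was averaged over both letters in blood. Differences between models used all groups of a tissue, and those between tissues the E arrays. All tests are two-sided. Hdc minus another gene was tested by exact permutation of the codes within letters, and correlations by 100000 permutations within groups, whose smallest possible p is 1e-05 (Python 3.11.15). The steps were tested on simulated data. Precision is limited by how many arrays a group has.

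The members, the gene lists and most tests were chosen with earlier results of these data known. All member probe sets are named, with the 8 genes most like Hdc by either measure and, in a list, the called members with the smallest p (up to 3) where a set is described. For the basophil, mast cell and B cell lists some members were named or counted outside this rule, after their values were seen. Alternatives were other pseudocounts, scalings, filters and fits, single letters, runs of consecutive title numbers, the beta-actin ratio as a covariate, and leaving out arrays. No values of other samples were used.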

Additional observations from a re-analysis of the deposited data

Results flagged for a closer look

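In 18 of 198 combinations of a member probe set and a group, 1 array lay farther from the others than a Dixon test at the 95% level allows. Chance flags about 1 in 20 groups. In burn blood, x letter E replicate 4 had Cpa3 at 214, against 121 to 140.4 in the others of its group. In LPS blood, c letter E replicate 5 had Hdc at 877 (195 to 271) and its second probe set at 362 (180 to 220.2). Prg2 was at 133 in c letter A replicate 3 (83.4 to 101) and at 103 in x letter E replicate 3 (66.0 to 76.0), and Siglecf was at 56.2 in x letter A replicate 2 (70.1 to 74.0). In trauma-hemorrhage blood, Fcer1a was at 55.6 in c letter E replicate 6 (45.2 to 49.0) and Ccr3 at 28.9 in x letter A replicate 4 (40.8 to 45.1). In x letter E replicate 2 of that set Prg2 was at 51.9 (77.2 to 83.5) and Il5ra at 77.6 (60.5 to 65.6). In burn spleen, Ccr3 was at 9.96 in c replicate 2 (19.6 to 24.9), Epx at 9.68, the floor, in c replicate 4 (17.2 to 21.1), and Ccr3 at 11.4 in x replicate 5, where the other x arrays were all at the floor. In LPS spleen, Il5ra was at 247 in c replicate 6 (131 to 152), Cpa3 at 134 in x replicate 3 (112 to 126), Fcer1a at 59.4 in x replicate 1 (47.1 to 53.5) and Prg2 at 47.7 in x replicate 6 (36.6 to 38.7). In trauma-hemorrhage spleen, the second Hdc probe set was at 209 in x replicate 1 (103 to 116).

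The difference between codes itself differed between 2 array sets in 16 of 99 tested contrasts of a member probe set (limma, adjusted over all probe sets). Of all probe sets, 2.73% (burn blood minus spleen) to 41.3% (trauma-hemorrhage minus LPS blood) were called in these contrasts. The count is therefore not read as particular to the members. Hdc differed by 1.46 in burn minus LPS spleen, by 2.02 in trauma-hemorrhage minus LPS spleen and by -1.98 in trauma-hemorrhage blood minus spleen, and its second probe set by 0.90 in trauma-hemorrhage minus LPS blood. Siglecf differed by -0.32 in trauma-hemorrhage minus LPS blood and by -0.56 in trauma-hemorrhage minus burn blood. In the same contrasts Fcer1a differed by -0.21 in the former, and Ms4a2 by -0.19 and Prg2 by -0.33 in the latter. Ccr3 differed by -0.49 in burn minus LPS spleen, by 0.50 in burn blood minus spleen and by 0.34 in trauma-hemorrhage blood minus spleen. Epx differed by 0.76 in burn minus LPS spleen, by 0.69 in trauma-hemorrhage minus LPS spleen and by 0.76 in LPS blood minus spleen. Cpa3 differed by -0.38 in trauma-hemorrhage minus burn spleen.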

How the results depend on the processing

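Hdc stayed higher in x and called in 84 of 91 fits under other settings and in all 98 that left out 1 array. Leaving out 1 array moved it between 2.08 and 2.38 in burn blood, 0.95 and 1.18 in LPS blood, 1.60 and 1.83 in trauma-hemorrhage blood, 2.98 and 3.40 in burn spleen, 1.51 and 1.86 in LPS spleen, and 3.53 and 3.92 in trauma-hemorrhage spleen. The call was lost in burn blood in letter E alone (1.60), in LPS blood in letter A alone (0.44) and in the second run of title numbers alone (0.28, adjusted p = 0.812), in trauma-hemorrhage blood in the first run alone (1.77, adjusted p = 0.103) and with the beta-actin ratio as a covariate (0.73), and in LPS spleen in the first run alone (1.08, adjusted p = 0.116), fits with fewer arrays except for the covariate. With that covariate Hdc in LPS blood turned to -0.47 and its second probe set to -0.13 (adjusted p = 0.921), the cause not tested.

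The number of member probe sets called moved by more than 1.5 times under some settings. With 1 probe set per gene and the 30th percentile filter, which test fewer members, it was 1 in burn blood, 1 in LPS blood, 2 in trauma-hemorrhage blood, 2 in burn spleen, 1 in LPS spleen and 1 in trauma-hemorrhage spleen, and with the filter alone 3 in trauma-hemorrhage blood. Array weights gave 5 in burn blood, where they called 4959 of all 22626 probe sets, against 3105 in the main fit. Letter E alone gave 0 in burn and 2 in trauma-hemorrhage blood, and letter A alone 0 in LPS blood. Over all probe sets these fits called 349, 3532 and 1138, against 3105, 10090 and 4739 in the main fits. Single runs gave 0 in LPS blood (second), 1 in trauma-hemorrhage blood (first) and 0 and 1 in LPS spleen (first and second). In that order the runs called 542, 994, 36 and 155 of all probe sets, where the main fit of LPS spleen called 503. The beta-actin covariate gave 0 in LPS and 0 in trauma-hemorrhage blood, with 1775 and 8 of all probe sets called. Leaving out 1 array gave 1 to 3 in LPS spleen. For letter E against A, and for its interaction with the code, the count was 0 of 11 in all fits run. All 54 comparisons of Hdc with a marker passed under the other pseudocounts and scalings and whenever 1 array was left out. Single letters, single runs and the beta-actin covariate were not tried for these comparisons. Of 60 correlations, 3 to 4 passed when 1 array was left out. No paired analysis was possible because the labels give the groups no shared replicate numbers. The second run of burn blood was not run alone, since it holds 1 x array of letter A.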
